A study of Mus musculus with 81 samples.

Results

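CA3 pyramidal neurons (PNs) of Ts65Dn mice were compared between offspring whose dams ate a choline-supplemented diet (ChP) and offspring whose dams ate the choline-normal control diet (ChN). The comparison comprised 7 CA3 libraries labelled Ts65Dn from ChP and 6 from ChN mice, which made 13 of the 26 CA3 libraries and of the 81 hippocampal libraries in the series. The only other CA3 library with that label, from mouse 15-145, was left out because the other libraries of that animal were labelled 2N. Each library came from 1 mouse, so that no mouse contributed to both diets.

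Ts65Dn mice carry an extra copy of the distal part of mouse chromosome 16 (Mmu16), which holds many orthologs of human chromosome 21 genes, fused to a centromeric piece of Mmu17 whose genes are not orthologous to that chromosome. Dams received choline chloride at 5.0 g/kg (ChP) or 1.1 g/kg (ChN) of diet from the start of gestation until the pups were weaned. All offspring ate the control diet thereafter, so the groups differed in perinatal exposure and not in the diet at the time of tissue collection. The study's methods describe male ChN mice at 6 months of age. The labels gave neither age nor sex for the ChP mice. In all 13 libraries the Y-linked genes *Ddx3y*, *Kdm5d*, *Uty* and *Eif2s3y* were counted, with lowest levels of 28.2, 12.4, 13.2 and 9.59 CPM (counts scaled to a common library total), whereas *Xist* had a count in 2 libraries and reached at most 0.973 CPM. Neurons were picked by eye from Nissl-stained cryosections by laser capture microdissection, so neighbouring cells could be carried along. Mice numbered 16 or 17 made up all 6 ChN libraries but 2 of the ChP libraries, the others coming from mice numbered 14 or 15. The labels do not say what these numbers mark, and diet and any handling that followed them cannot be told apart.

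Choline is the precursor of phosphatidylcholine, the main phospholipid of cell membranes, and of the neurotransmitter acetylcholine. After oxidation to betaine it also donates methyl groups to homocysteine, which feeds the methionine cycle and the S-adenosylmethionine used to methylate DNA and histones. CA3 PNs receive mossy fibre input from dentate granule cells and cholinergic input from the septum, and project to CA1 through the Schaffer collaterals.

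The 13 libraries held between 950092 and 2710441 estimated counts, with means of 1582000 ± 566900 in ChP (SD, n = 7) and 1581000 ± 630800 in ChN (SD, n = 6). At the shallowest library 3 counts corresponded to 3.16 CPM, which set the level below which a single library was uninformative. Mitochondrial transcripts took 6.55% to 8.02% of the counts in ChP (median 6.70%) and 6.19% to 6.85% in ChN (median 6.45%), and the ranges overlapped. The means differed by 0.675 percentage points (exact two-sided permutation test, p = 0.039, Benjamini-Hochberg adjusted p = 0.125 over 5 library measures). The share of counts in protein-coding genes averaged 86.0% in ChP and 87.5% in ChN (exact permutation test, p = 0.0752, adjusted p = 0.125), and the share in the 10 most abundant genes 13.7% and 12.2% (exact permutation test, p = 0.0565, adjusted p = 0.125). All 9 CA3 markers passed the expression filter, among them *Cpne4*, *Iyd*, *Grik4* and *Elavl2*. Haemoglobin genes and the choroid plexus gene *Folr1* were at or near 0, and *Ttr* had counts in 2 libraries. Dentate granule cell markers were high in the ChP library of mouse 15-140, at a summed level of 143.9 CPM against 41.3 to 58.2 CPM in the other 12 libraries, with *Prox1*, a transcription factor of granule cells, at 52.2 CPM against at most 9.37 CPM. Astrocyte markers were present in every library, with summed levels of 1969 to 2503 CPM in ChP and 1817 to 2667 CPM in ChN, mostly from the glutamate transporter gene *Slc1a2*. As a check of the genotype labels, the mean log2 CPM of the triplicated Mmu16 genes lay between 5.14 and 5.31 in the 13 libraries and between 4.62 and 4.81 in the 12 disomic CA3 libraries. The library of mouse 15-145 had a mean of 4.88, nearer the disomic range. For the triplicated Mmu17 genes its mean was 4.18. This lay inside the disomic range of 4.02 to 4.33 and below the 4.68 to 4.85 of the 13 libraries. A setting that counts this library as Ts65Dn on ChN therefore cannot separate diet from genotype for any gene.

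No gene separated the diets after correction for multiple testing. Of 13906 genes tested by edgeR's quasi-likelihood test, 681 had an unadjusted p under 0.05, the threshold used in the study to call a gene, which was 4.90% of the genes tested. A count of called genes below always refers to this unadjusted threshold. The share to set beside each such count is the 4.90% of all genes. A short list with 0 or 1 called member is close to it. Of the called genes 379 were higher in ChP (2.73% of those tested) and 302 were lower (2.17%). With library totals in place of trimmed-mean (TMM) scaling the split turned to 258 higher and 436 lower, so the balance between directions depended on the scaling. None of the 13906 genes reached an adjusted p under 0.05, the smallest being 0.753, and DESeq2 and limma-voom on the same libraries called 473 and 786 genes unadjusted and 0 adjusted. The called genes had a median absolute log2 fold change (LFC, ChP minus ChN) of 0.452, and 561 of them (82.4%) changed by less than 2-fold.

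**Figure D1:**
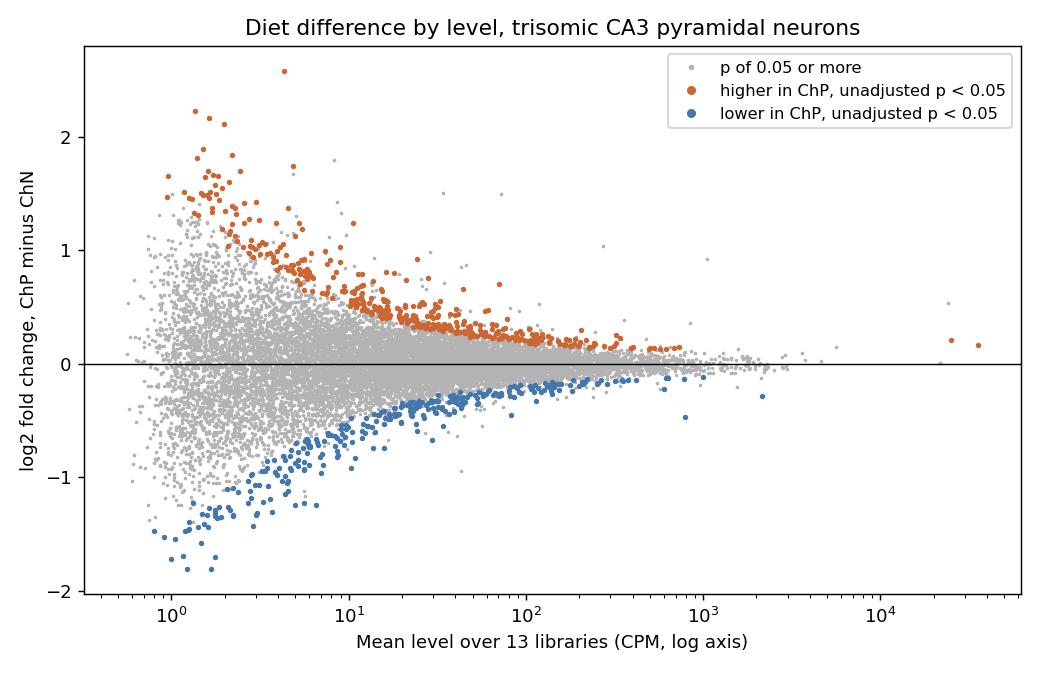
Mean level over the 13 libraries (CPM, log axis) against the log2 fold change between ChP and ChN for each of the 13906 genes tested, one point per gene. The 379 called genes higher in ChP and the 302 lower in ChP, at an unadjusted p under 0.05, lie on both sides of 0 along most of the range of levels, and the scatter widens toward low levels.

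How much the libraries could have shown depended on the level of a gene. For the 2011 genes above 100 CPM the 95% interval of the LFC had a median half-width of 0.155, and for 98.5% of them the whole interval lay within a 1.5-fold change in either direction. For the 6521 genes between 10 and 100 CPM the half-width was 0.314 and 78.2% lay within 1.5-fold. For the 5155 genes between 1 and 10 CPM it was 0.879, and 34.1% lay within 2-fold. A diet difference of 2-fold was therefore outside the interval for 10133 genes (72.9%), and a difference of that size remained inside it for most genes under 10 CPM. The share of called genes ranged from 2.28% under 1 CPM to 5.57% over 100 CPM.

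The genes with the smallest p-values among those higher in ChP were led by *Prpf38b*, a pre-mRNA splicing factor (chr3:108808326-108819067, minus strand, GRCm39). Its level was 56.1 CPM in the lowest, 64.8 in the median and 94.6 in the highest ChP library, against 43.8, 50.1 and 54.5 CPM in ChN. The groups did not overlap, which held for 15 of the 13906 genes (0.108%). The LFC was 0.46 (SE 0.11, unadjusted p = 0.000193), and the adjusted p from edgeR was 0.836. *Myh7b*, a myosin heavy chain gene that hosts a microRNA, ran from 10.8 through a median of 24.3 to 26.8 CPM in ChP and from 8.87 through 12.3 to 18.4 CPM in ChN. A single ChP library lay inside the ChN range, and the LFC was 0.79 (SE 0.20, unadjusted p = 0.00021). *Mto1*, which modifies mitochondrial tRNAs, had 14.2, 20.0 and 28.7 CPM in ChP (lowest, median, highest) and 8.87, 10.9 and 18.3 CPM in ChN. Here the highest ChN library overlapped the lower ChP libraries, and the LFC was 0.81 (SE 0.20, unadjusted p = 0.000258). *Plekhm2*, an adaptor that links lysosomes to kinesin, averaged 38.6 ± 6.65 CPM in ChP (SD, n = 7) and 26.0 ± 3.17 CPM in ChN (SD, n = 6), with an LFC of 0.55. *Ncl*, which encodes the nucleolar protein nucleolin, averaged 350.6 ± 41.0 and 294.5 ± 16.5 CPM, and its LFC of 0.26 was the smallest of the 5.

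The other 7 genes with the smallest p-values on the higher side were *Lrtm2* (LFC 0.52), the mitochondrial 16S ribosomal RNA gene *mt-Rnr2* (0.17), the small-subunit processome gene *Utp11* (0.73), *Aldh7a1* (0.74), the kinesin gene *Kif9* (2.11), the corepressor gene *Rcor2* (0.79) and *Ptchd4* (2.17). The LFC values of *Kif9* and *Ptchd4* rested on low levels: their medians were 2.7 and 2.35 CPM in ChP and 0.670 and 0.646 CPM in ChN, with ChN libraries at 0. *mt-Rnr2* ranged from 32630 to 42040 CPM in ChP and from 32110 to 36070 CPM in ChN, and moved with the mitochondrial share given above. This transcript is itself a large part of that share, so a fit with the share as a covariate says nothing about it.

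**Figure D2:**
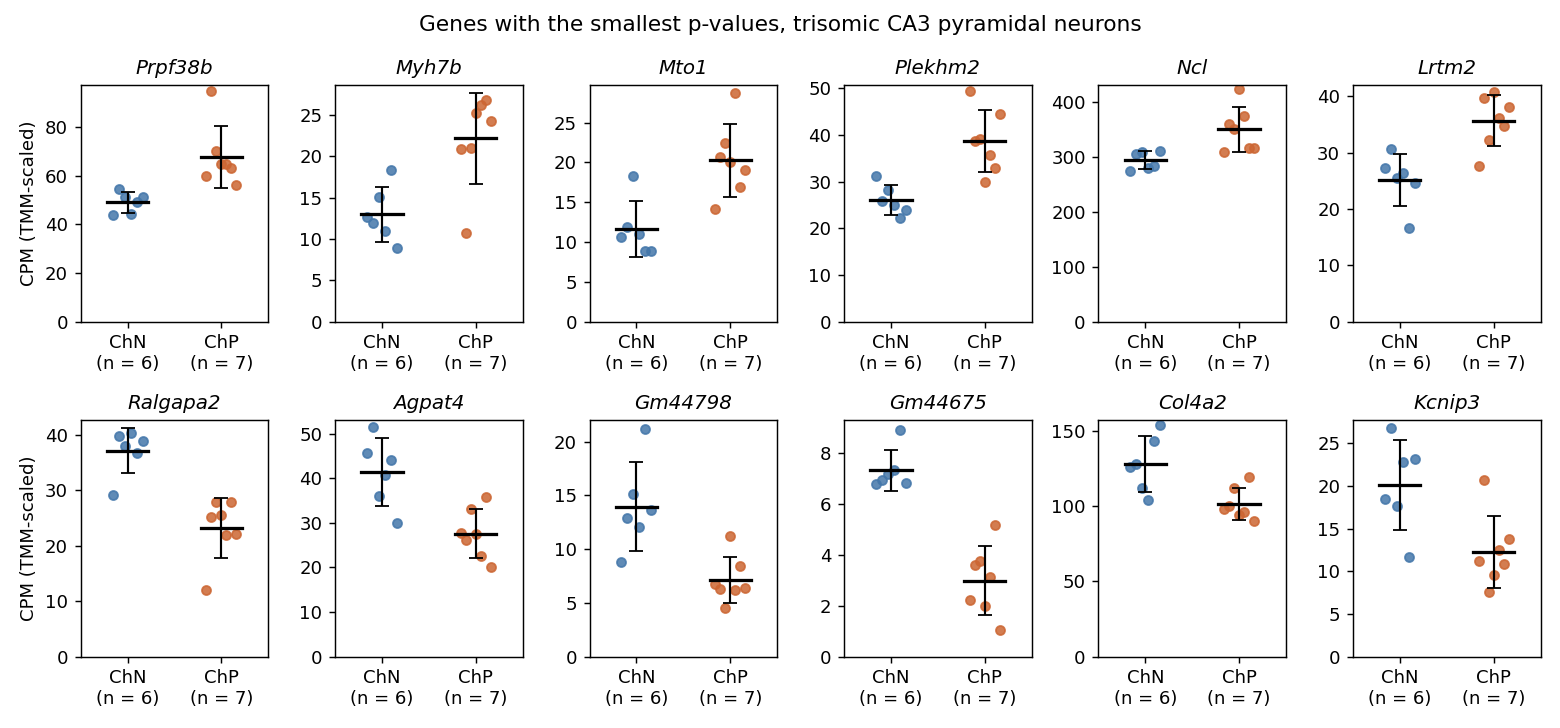
Level of 12 genes in each trisomic CA3 library (TMM-scaled CPM, axes from 0), the 6 with the smallest p-values among genes higher in ChP above and the 6 among genes lower in ChP below. Points are libraries, the long bar is the mean and the whiskers are 1 SD. *Prpf38b*, *Ralgapa2* and *Gm44675* are the panels in which the 7 ChP and 6 ChN libraries do not overlap.

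On the lower side the smallest p-value of all belonged to *Ralgapa2*, the catalytic subunit of a GTPase-activating complex for the Ral GTPases (chr2:146081799-146354264, minus strand). Its level was 12, 25.2 and 27.8 CPM in the lowest, median and highest ChP library and 29.2, 38.4 and 40.4 CPM in ChN. Every ChP library lay below every ChN library, the LFC was -0.67 (SE 0.15, unadjusted p = 5.42e-05), and edgeR's adjusted p was 0.753. *Agpat4*, an acyltransferase of phosphatidic acid synthesis, had 20.1, 27.6 and 35.8 CPM in ChP and 30.0, 42.4 and 51.6 CPM in ChN, an overlap at the edges of the ranges. Its LFC was -0.55 (SE 0.14, unadjusted p = 0.000427). *Col4a2*, a chain of the type IV collagen of basement membranes, averaged 101.2 ± 10.3 CPM in ChP (SD, n = 7) and 127.8 ± 18.6 CPM in ChN (SD, n = 6). *Kcnip3*, which encodes the calcium sensor DREAM/calsenilin, averaged 12.3 ± 4.21 and 20.1 ± 5.29 CPM. *Ric8a*, a chaperone of G protein alpha subunits, averaged 47.0 ± 2.94 and 59.8 ± 9.05 CPM. The list was completed by the helicase gene *Rtel1* (LFC -0.74), the kindlin gene *Fermt1* (-1.22), *5730480H06Rik* (-0.83), the glucuronyltransferase gene *B3gat2* (-0.53), the protocadherin *Pcdha2* (-0.96) and the provisional gene models *Gm44798* (-0.92) and *Gm44675* (-1.24). *Pcdha2* and *Gm44675* were the remaining pair without overlap between the diets. The protocadherin alpha genes share their last exons, so the assignment of reads to *Pcdha2* is uncertain. All 24 of these genes stayed under an unadjusted p of 0.05 whichever single library was left out. They were picked for their small p in these same libraries, so this outcome was largely fixed and adds no support. With only mice numbered 16 or 17, 12 of them did not reach it, *Prpf38b* (LFC 0.30), *Ncl* (0.10) and *Col4a2* (-0.26) among them, and with the library of mouse 15-145 included as Ts65Dn the LFC of *Prpf38b* was 0.08.

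The genes for cytosolic ribosomal proteins, the structural proteins of the translating ribosome, were the list with the most called members in a single direction. Of 82 tested, 11 were higher in ChP and 0 lower, or 13.4% called against 4.90% of all genes. The median LFC of the list was 0.14, and that of all genes 0.004. *Rpl37a* had 3.29, 12.6 and 15.9 CPM in the lowest, median and highest ChP library and 2.23, 6.34 and 8.92 CPM in ChN (LFC 1.03, SE 0.31, unadjusted p = 0.00193). *Rpl11* averaged 29.2 ± 6.65 CPM in ChP and 20.7 ± 8.10 CPM in ChN, *Rpl41* 49.9 ± 10.4 and 39.1 ± 6.83 CPM, and *Rpsa* 122.7 ± 22.4 and 104.4 ± 8.86 CPM (SD, n = 7 and n = 6). In each of these the ranges of the diets overlapped. The summed level of the 82 genes was 3187 CPM in the lowest, 3548 in the median and 4061 in the highest ChP library and 3041, 3344 and 3592 CPM in ChN, with 6 of 7 ChP libraries above the ChN median. Without the ChP library of mouse 15-245 7 members were called, with the library of mouse 15-145 included as Ts65Dn 3, with all libraries thinned to the lowest total 4, and with only mice numbered 16 or 17 there were 4 higher and 1 lower. Without mice 15-140 and 15-199, which had the highest mitochondrial share, 12 were called, and with the mitochondrial share added to the model, an alternative chosen after seeing the data, 12 were higher and 0 lower with a median LFC of 0.22. Many ribosomal protein genes have near-identical processed pseudogenes, which makes their counts uncertain.

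In the other hippocampal samples the same list gave different counts. In CA1 PNs of Ts65Dn mice 17 of 83 members were higher in ChP and 0 lower (median LFC 0.196, where 4.62% of all genes were called). Of the 11 members called in CA3 and the 17 called in CA1, *Rpl12*, *Rpl41*, *Rps23* and *Rpsa* were called in both, or 36.4% of the CA3 and 23.5% of the CA1 members. Of the 13 CA3 mice 12 also gave a CA1 library, so the CA1 values do not come from independent animals. In dentate granule cells of Ts65Dn mice 1 of 83 members was higher and 1 lower (median LFC 0.01, 4.27% of all genes called), and in disomic CA3 PNs 3 were higher and 4 lower (median LFC 0.01, 5.00% of all genes called). Tested directly, the diet difference between trisomic and disomic CA3 had an unadjusted p under 0.05 for 5 of 82 members, between CA3 and dentate for 4, and between CA3 and CA1 for 2, and 0 members in each passed adjustment. Over all genes the shares for these tests were 4.50%, 4.39% and 3.29%, so the counts of members were close to the background. The 5 and the 4 all had the larger LFC in trisomic CA3, and the 2 had it in CA1. Over the list the median difference (trisomic CA3 minus the other) was 0.115 for disomic CA3, 0.135 for dentate and -0.064 for CA1.

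**Figure D3:**
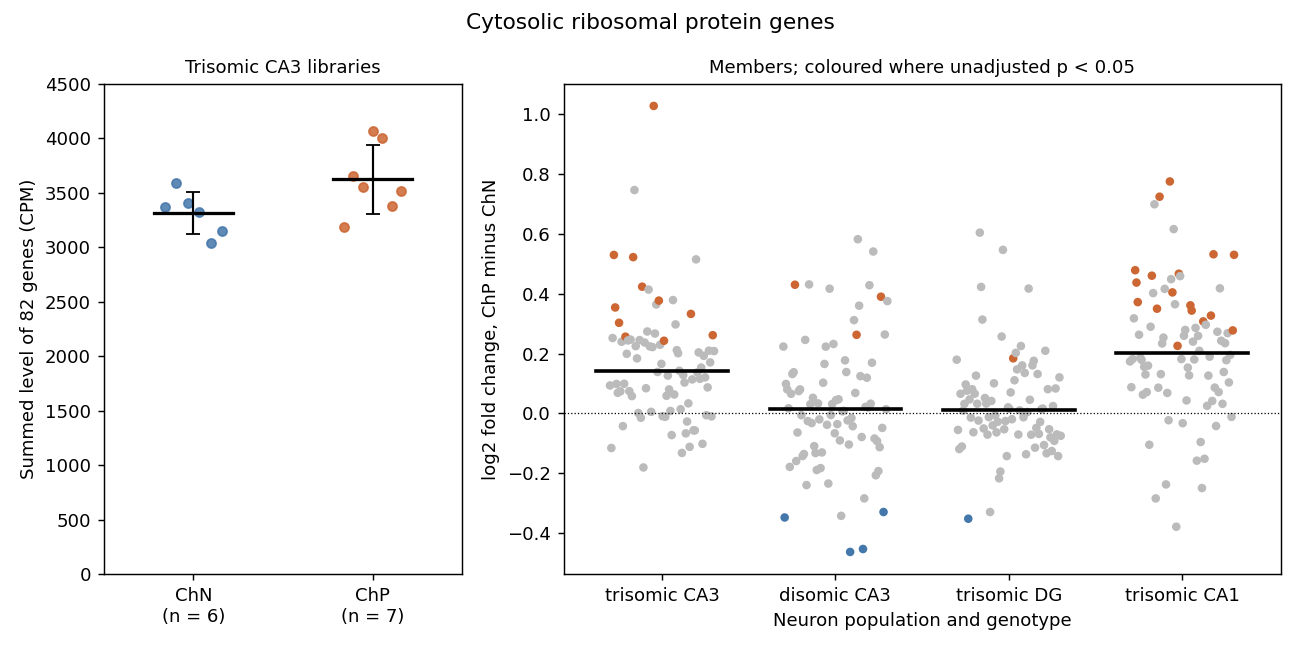
Left, summed level of the 82 cytosolic ribosomal protein genes in each trisomic CA3 library (CPM, axis from 0), with the mean as a bar and 1 SD as whiskers. Right, log2 fold change between ChP and ChN of the same genes in trisomic CA3, disomic CA3, trisomic dentate (DG) and trisomic CA1, with the list median as a bar and members at an unadjusted p under 0.05 in colour: 11 in trisomic CA3, 7 in disomic CA3, 2 in DG and 17 in CA1.

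Among 23 tested genes of choline transport and phosphatidylcholine synthesis 1 was called higher and 1 lower (8.70%, against 4.90% of all genes). Their LFC ran from -0.57 to 0.49 with a median of -0.01. The summed level of the list averaged 1184 ± 27.6 CPM in ChP (SD, n = 7) and 1213 ± 53.9 CPM in ChN (SD, n = 6). In this sum 0 of 7 ChP libraries lay above the ChN median. The ChP range of 1128 to 1207 CPM lay within the ChN range of 1127 to 1270 CPM. *Flvcr1*, which transports choline across the plasma membrane, had 2.50, 8.27 and 10.6 CPM in the lowest, median and highest ChP library and 6.81, 11 and 14.5 CPM in ChN, with every ChP library below the ChN median (LFC -0.57, SE 0.27, unadjusted p = 0.0394). *Pnpla6*, neuropathy target esterase, which breaks phosphatidylcholine down, averaged 43.5 ± 8.77 CPM in ChP and 35.9 ± 4.77 CPM in ChN (LFC 0.28, unadjusted p = 0.042). Both fell short of the threshold in DESeq2 and when any of several single libraries was left out. The choline transporter gene *Slc44a1* averaged 48.5 ± 8.06 and 48.0 ± 7.06 CPM, with an LFC of -0.01 and a 95% interval from -0.26 to 0.24. *Chka*, choline kinase alpha, the first enzyme of the Kennedy pathway, had an LFC of -0.19 (95% interval -0.42 to 0.05). *Pcyt1a*, the rate-limiting step of that pathway, had an LFC of -0.07 (95% interval -0.50 to 0.35), and its neuronal paralog *Pcyt1b* had one of 0.07 (95% interval -0.16 to 0.30). The high-affinity choline transporter gene *Slc5a7* and *Pemt*, which makes phosphatidylcholine by methylation, were among 6 genes of this list below the expression filter.

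Of 26 tested genes of one-carbon and S-adenosylmethionine metabolism 1 was called, higher in ChP (3.85%, median LFC 0.05). The sign of this median was not stable: it was -0.02 without the ChP library of mouse 15-245, -0.02 with a stricter filter on low counts and -0.03 with the mitochondrial share added. The called gene was *Aldh7a1*, which among other substrates oxidises betaine aldehyde to betaine, the step that turns choline into a methyl donor. Its level was 15.3, 26.3 and 36.2 CPM in the lowest, median and highest ChP library and 8.87, 13.9 and 29.7 CPM in ChN. The single ChN library at 29.7 CPM overlapped the ChP range, and the other ChN libraries reached at most 15.8 CPM (LFC 0.74, SE 0.21, unadjusted p = 0.0012). *Chdh*, choline dehydrogenase, which catalyses the step before it, had medians of 2.26 CPM in ChP and 1.39 CPM in ChN and an LFC of 0.87 with a 95% interval from -0.15 to 1.89. *Mat2a*, the S-adenosylmethionine synthase of brain, had an LFC of -0.07 (95% interval -0.26 to 0.13), and *Mtr*, methionine synthase, had one of -0.12 (95% interval -0.43 to 0.19). *Bhmt*, the betaine-homocysteine methyltransferase, was below the filter.

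**Figure D4:**
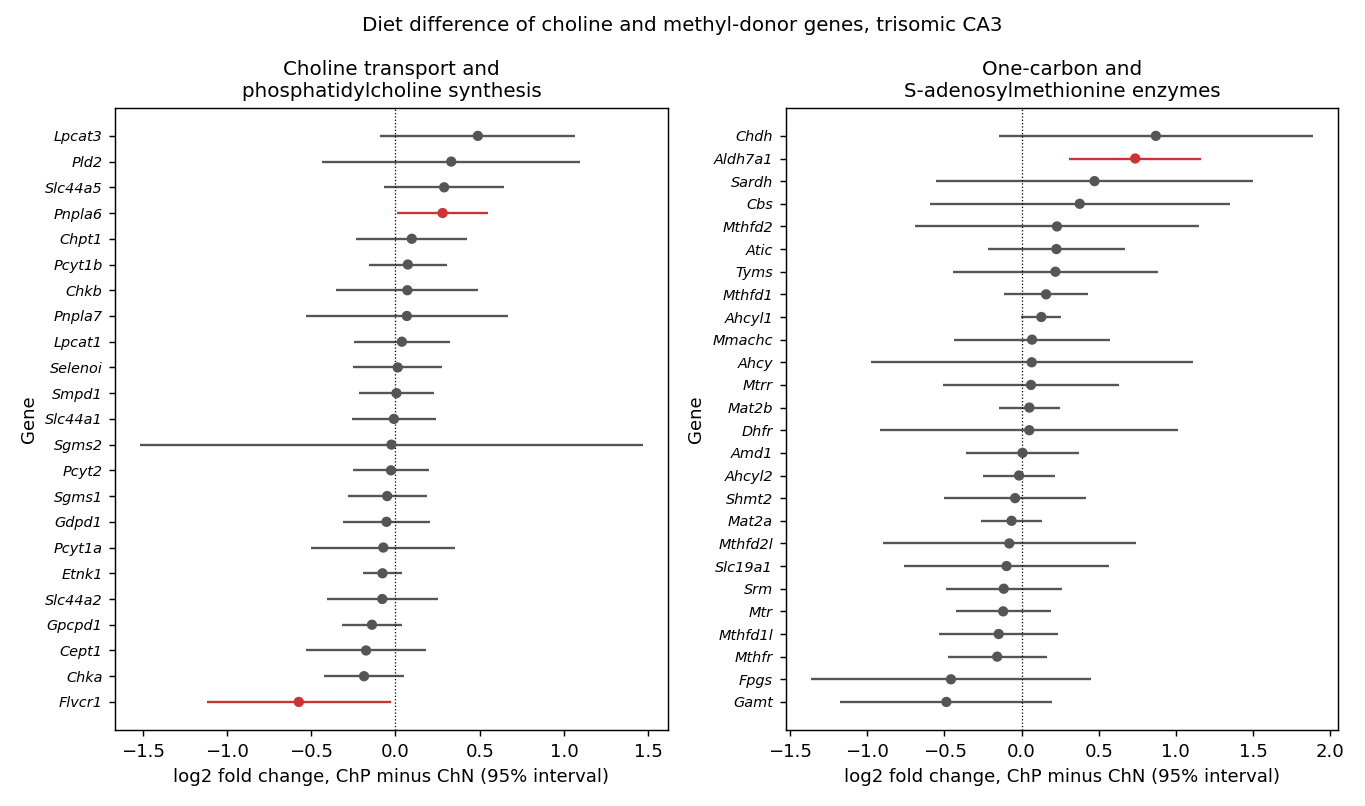
Log2 fold change between ChP and ChN with its 95% interval for the 23 tested genes of choline transport and phosphatidylcholine synthesis (left) and the 26 tested genes of one-carbon and S-adenosylmethionine metabolism (right) in trisomic CA3. Red marks an unadjusted p under 0.05, which *Pnpla6*, *Flvcr1* and *Aldh7a1* had, and the widest intervals belong to the genes at the lowest levels, such as *Sgms2*.

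DNA methyltransferases and TET oxidases had no called member. Of 20 genes that write, erase or read DNA methylation, 2 were higher and 2 lower (20.0%, against 4.90% of all genes, median LFC -0.01). *Mbd3*, a subunit of the NuRD corepressor, averaged 56.7 ± 6.92 CPM in ChP and 66.4 ± 6.44 CPM in ChN (LFC -0.24, unadjusted p = 0.0333). *Gadd45b*, an activity-induced gene linked to DNA demethylation, averaged 11.8 ± 3.86 and 16.8 ± 4.11 CPM (LFC -0.60, unadjusted p = 0.00947). *Mbd4*, a thymine glycosylase, had an LFC of 1.04 at a median of 2.99 CPM in ChP and 1.47 CPM in ChN. The methyltransferase gene *Dnmt3a* had an LFC of -0.04 (95% interval -0.28 to 0.20), and *Tet3*, which oxidises methylcytosine, had one of -0.04 (95% interval -0.22 to 0.14). Of 47 histone methyltransferase and demethylase genes 2 were higher and 0 lower (4.26%): *Prmt1* (LFC 0.31), an arginine methyltransferase, and *Suv39h1* (LFC 0.41), which methylates histone H3 in heterochromatin.

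Of 66 triplicated Mmu16 genes tested, 1 was called higher in ChP and 3 lower (6.06%, against 4.90% of all genes). Regardless of the threshold 25 had an LFC above 0 and 41 below it, with a median of -0.04. With the library of mouse 15-145 included as Ts65Dn 6 were called higher and 0 lower, and the median was 0.05. That library, counted as ChN, had a mean log2 CPM of these genes of 4.881, against 5.227 to 5.312 in the other ChN libraries. This setting therefore cannot separate diet from gene dose for triplicated genes. *App*, the amyloid precursor protein gene, had 2668, 2958 and 3132 CPM in the lowest, median and highest ChP library and 2838, 3080 and 3159 CPM in ChN (LFC -0.05, 95% interval -0.14 to 0.05). *Dyrk1a*, a kinase gene of the same segment, had an LFC of 0.11 (95% interval -0.05 to 0.27). The called members were *Donson* (LFC -0.46), a DNA replication factor, *Dop1b* (-0.15), a protein of endosome to Golgi traffic, *Pigp* (-0.68), an enzyme subunit of GPI anchor synthesis, and the carbonyl reductase gene *Cbr3* (1.14), the last at a median of 2.82 CPM in ChP. Of 24 triplicated Mmu17 genes 2 were higher, *Tulp4* (LFC 0.16) and *Fndc1* (0.36), and 0 lower (8.33%). The summed level of the Mmu16 genes was 10840 to 11470 CPM in ChP and 11330 to 11840 CPM in ChN, with 1 of 7 ChP libraries above the ChN median.

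Cholinergic signalling genes gave no called member, but at the 4.90% called of all genes a list this short would hold few or none. All 12 tested acetylcholine receptor and esterase genes had an unadjusted p of 0.05 or more, with a median LFC of -0.05. *Chrm1*, the main muscarinic receptor of pyramidal neurons, had 332.0, 341.9 and 372.1 CPM in the lowest, median and highest ChP library and 299.7, 326.0 and 337.7 CPM in ChN, with each ChP library above the ChN median (LFC 0.11, 95% interval -0.01 to 0.23). *Ache*, acetylcholinesterase, had an LFC of -0.16 (95% interval -0.44 to 0.12). Of 11 tested neurotrophin and receptor genes 1 was called, higher in ChP (9.09%, against 4.90% of all genes, median LFC -0.01). In this list *Bdnf* had an LFC of 0.02 (95% interval -0.19 to 0.24), and its receptor gene *Ntrk2* had one of 0.02 (95% interval -0.10 to 0.14).

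Some markers of inhibitory neurons were called. Of 10 tested, 3 were higher in ChP and 0 lower, with a median LFC of 0.40, where 2.73% of all genes were higher. Without the ChP library of mouse 15-36 the median was 0.18, and 0 of 10 were called with only mice numbered 16 or 17 or with the library of mouse 15-145 included. These 3 were named after their values were seen. *Sst*, the somatostatin gene, had 7.41, 32.4 and 46.0 CPM in the lowest, median and highest ChP library and 9.92, 16.7 and 23.4 CPM in ChN (LFC 0.92, SE 0.32, unadjusted p = 0.0146). *Npy*, neuropeptide Y, averaged 10.01 ± 4.86 CPM in ChP and 6.10 ± 2.43 CPM in ChN (LFC 0.77, unadjusted p = 0.0184). *Lhx6*, a transcription factor of interneurons from the medial ganglionic eminence, averaged 6.49 ± 1.40 and 3.98 ± 2.20 CPM (LFC 0.70, unadjusted p = 0.0477). The pan-GABAergic genes *Gad1* and *Gad2* had LFC values of 0.10 and 0.21 and *Pvalb* had one of 0.07, and these genes did not reach the threshold. The summed level of the 10 markers ran from 374.7 to 655.7 CPM in ChP and from 414.8 to 596.5 CPM in ChN, with 5 of 7 ChP libraries above the ChN median. With the library of mouse 15-145 included as Ts65Dn the LFC of *Sst* was -0.20 and that of *Npy* -0.56. That setting cannot separate diet from genotype. In bulk samples of this kind more captured interneurons and more RNA per interneuron cannot be told apart. In disomic CA3 the LFC of *Sst*, *Npy* and *Lhx6* was -0.17, -0.71 and -0.82. Among markers of other cells, the astrocyte genes *Gja1* (LFC 0.44) and *Aldoc* (0.26), the dentate gene *Trpc6* (0.87, highest at 12.6 CPM in the library of mouse 15-140) and the CA3 gene *Cpne4* (0.14) were called higher, whereas the oligodendrocyte, microglia and vascular lists had 0 called members of 10, 7 and 7 tested.

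Glutamate receptor genes gave no called member, where 4.90% of all genes were called, so lists of this size would hold few. Of 21 AMPA receptor and auxiliary genes, 13 NMDA and kainate receptor genes and 8 metabotropic glutamate receptor and Homer genes, 0 were called in either direction, with medians of 0.01, -0.03 and 0.07. Of 15 GABA receptor subunit genes 0 were higher and 2 lower (13.3%, against 4.90% of all genes). *Gabra5*, the alpha5 subunit enriched in hippocampus, averaged 205.1 ± 23.1 CPM in ChP and 227.1 ± 26.7 CPM in ChN (LFC -0.16, unadjusted p = 0.0435). Its annotated interval overlaps a gene on the opposite strand, so its counts are uncertain. Of 43 genes of the vesicle release machinery 3 were higher and 1 lower (9.30%, against 4.90% of all genes). The SNARE gene *Vamp2* (LFC 0.14) and the priming factor gene *Unc13c* (1.24) were among the higher, and *Unc13b* (-0.20) was the lower. *Vamp2* had 712.5, 757.4 and 841.9 CPM in the lowest, median and highest ChP library and 594.6, 688.9 and 794.8 CPM in ChN. Of 30 potassium channel genes 1 was higher, *Kcnh7* (LFC 1.27), and 1 lower, *Kcna4* (-0.36). The LFC of *Kcnh7* ran from 0.97 to 1.83 when single libraries were left out, but was -0.31 with only mice numbered 16 or 17. Of 26 calcium and sodium channel genes 1 was lower, *Cacna2d1* (-0.15), the alpha2delta subunit bound by gabapentin. Of 57 clustered protocadherin genes 5 were higher and 1 lower.

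Type IV collagen and basement membrane genes had 0 members higher and 3 lower of 13 tested (23.1%). Of all genes 4.90% were called and 2.17% were lower. Their median LFC was 0.03, but it was -0.24 without the ChP library of mouse 15-36 and -0.22 without the filter on low counts. Their summed level averaged 499.0 ± 22.8 CPM in ChP (SD, n = 7) and 550.9 ± 30.9 CPM in ChN (SD, n = 6), with 0 of 7 ChP libraries above the ChN median. Beside *Col4a2* they were *Col4a1*, its partner chain, which averaged 82.5 ± 12.6 CPM in ChP and 96.2 ± 12.2 CPM in ChN (LFC -0.22, unadjusted p = 0.0363), and *Agrn*, the proteoglycan agrin, which averaged 142.9 ± 12.6 and 168.3 ± 20.1 CPM (LFC -0.23, unadjusted p = 0.00532). *Col4a1* and *Col4a2* lie head to head and their annotated intervals overlap at the start (chr8:11248423-11362826, minus strand, and chr8:11362471-11499287, plus strand). The vascular markers, with 0 of 7 called, had a summed level that overlapped between the diets. Of 38 genes of cholesterol synthesis, uptake and export 2 were lower, the synthetic enzymes *Fdps* (LFC -0.45) and *Lss* (-0.52), and 0 higher, with a median of -0.07. Of 80 nuclear-encoded subunits of oxidative phosphorylation 5 were higher and 2 lower (8.75%, against 4.90% of all genes). They were led by *Ndufs5* (LFC 0.47) among the higher and *Atp5mc1* (-0.45) among the lower. Of the 7 mitochondrially encoded subunits tested *mt-Nd6* (LFC 0.48) was called. Of 40 genes of glycolysis and the TCA cycle 2 were higher, *Aldoc* and *Pcx* (LFC 0.34), and 1 lower, *Pdhx* (-0.33).

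Endosomal and lysosomal genes, whose compartments are enlarged in trisomic neurons, held called members at shares of 3.12% and 3.85%, near the 4.90% of all genes. Of 32 Rab5, Rab7 and retromer genes 1 was higher, *Rab7* (LFC 0.16), and 0 lower. Of 52 autophagy and lysosome genes 2 were higher, *Becn1*, which starts autophagosome formation (LFC 0.22, 107.5 to 160.9 CPM in ChP and 99.3 to 120.6 CPM in ChN), and *Atg4a* (LFC 2.22, at a median of 2.26 CPM in ChP). Of 27 immediate early genes 2 were higher, *Egr4* (LFC 0.50) and *Inhba* (0.47). The mitochondrial ribosomal proteins had 2 members higher, *Mrps33* (LFC 0.50) and *Mrpl40* (0.44), and 1 lower, *Mrpl27* (-0.82), of 78. A single member was called in each of 4 further lists: the chaperonin subunit gene *Tcp1* (LFC -0.14) of 41 heat shock and chaperone genes, the peptide transporter gene *Tap1* (1.33) of 18 interferon and antigen presentation genes, the transcription factor gene *Neurod2* (0.21) of 12 neurogenesis genes and *Psmc3* (-0.18) of 36 proteasome subunits. *Tap1* fell short of the threshold in 9 of 27 other settings, with an LFC from 0.93 to 2.00. Of 28 antioxidant genes 0 were called, against 4.90% of all genes.

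**Figure D5:**
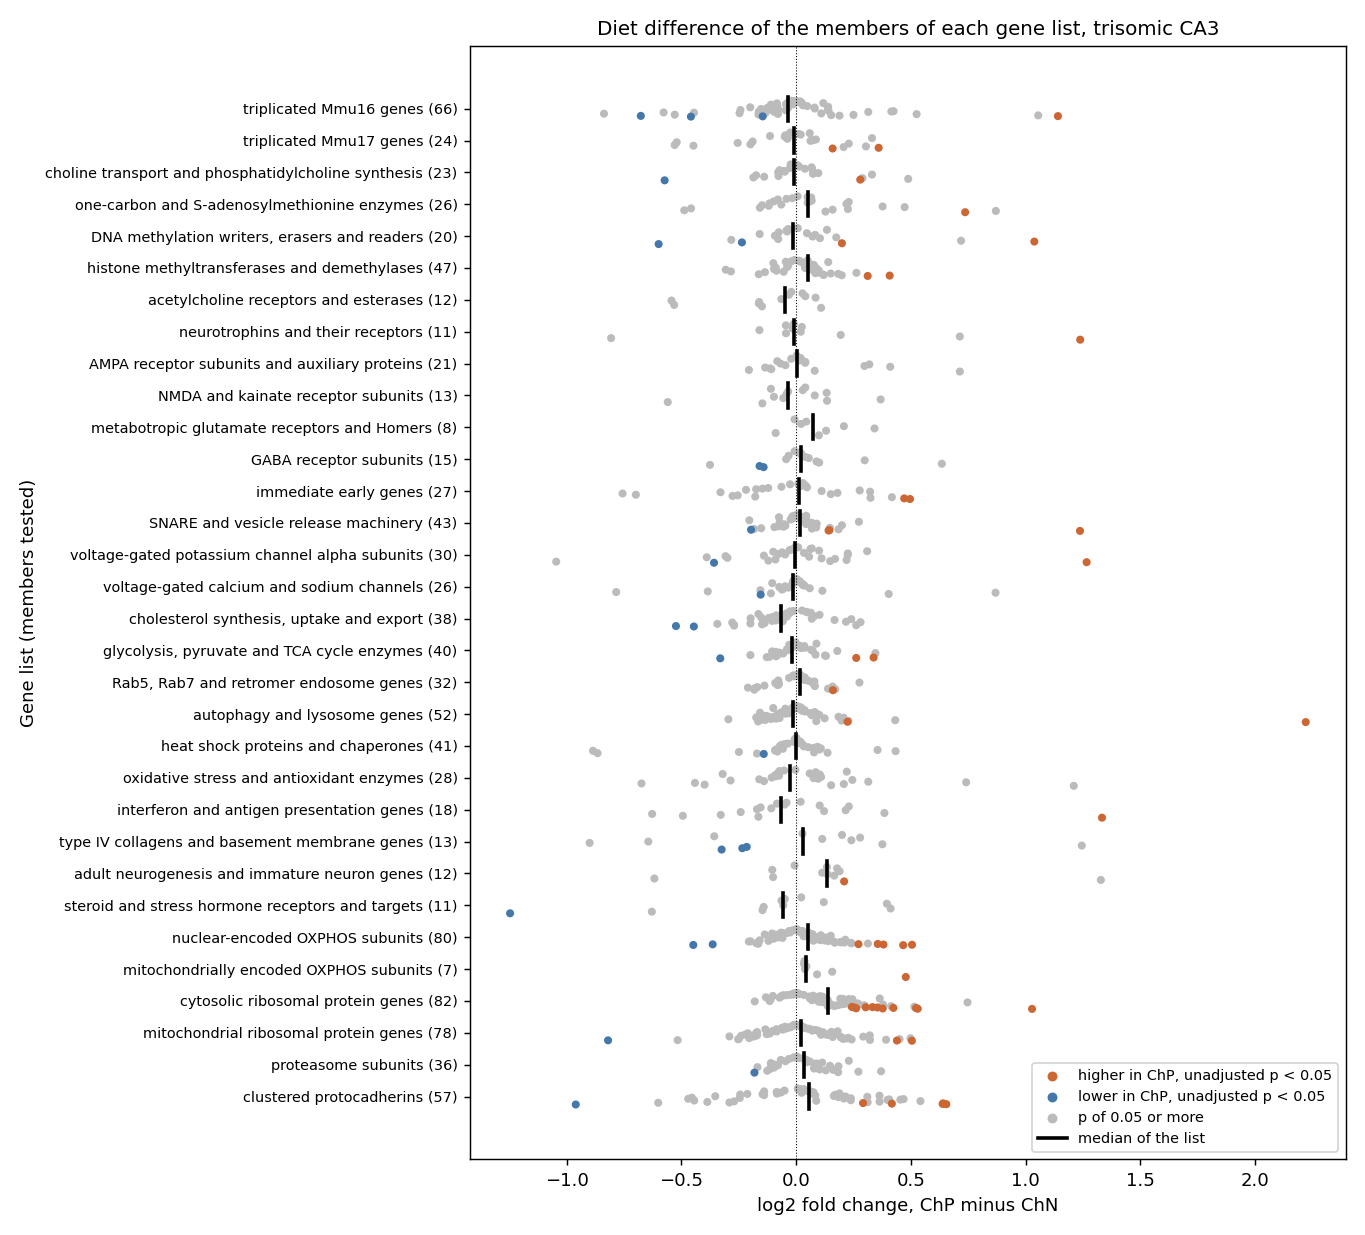
Log2 fold change between ChP and ChN of each tested member of 32 gene lists in trisomic CA3, one point per gene, coloured where the unadjusted p was under 0.05, with the list median as a black bar. Medians lie between -0.07 and 0.14, the cytosolic ribosomal protein genes having the highest.

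Whether maternal diet acted differently on trisomic and disomic CA3 PNs was tested with 25 libraries, adding 7 ChP and 5 ChN libraries of disomic (2N) mice on the same diets. Of 16435 genes 739 had an unadjusted p under 0.05 for the difference between the genotypes (4.50%) and 0 passed adjustment in edgeR. The 681 genes called in trisomic CA3 had the same direction in disomic CA3 in 50.7% of cases, and all 13906 genes did so in 50.4%. Of those 681 genes 37 were also called among the 822 of disomic CA3, which is 5.43% of the trisomic and 4.50% of the disomic list, and 22 of the 37 moved in the same direction. Of the 24 leading genes 12 had the same direction in disomic CA3, and 2 were called there, *Ncl* and *Utp11*. *Ncl* was nearest to a shared difference, with an LFC of 0.26 in trisomic and 0.25 in disomic CA3. *Utp11* had 0.73 and 0.52, whereas *Mto1* had 0.81 and 0.01, *Plekhm2* had 0.55 and -0.05 and *Ralgapa2* had -0.67 and 0.01. These genes were picked for their trisomic values, so such gaps describe them and were not tested independently. The smallest p for a difference between genotypes belonged to *Egr4*, an activity-induced transcription factor, with an LFC of 0.50 in trisomic and -0.70 in disomic CA3 (difference 1.2, SE 0.285, unadjusted p = 6.66e-05, edgeR adjusted p = 0.667). The list of immediate early genes had 1 member higher and 8 lower of 27 in disomic CA3 (median LFC -0.23, where 5.00% of all genes were called), against 2 higher and 0 lower in trisomic CA3 (median 0.01).

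Within Ts65Dn mice the diet difference in CA3 PNs was set beside that in dentate granule cells (28 libraries with CA3) and CA1 PNs (27 libraries). The difference between populations had an unadjusted p under 0.05 for 751 of 17109 genes against dentate (4.39%) and 555 of 16854 against CA1 (3.29%), and 0 genes passed adjustment in either. Genes called in CA3 had the same direction in dentate in 55.4% of cases and in CA1 in 62.6%, where all genes had it in 51.3% and 53.3%. These populations were captured from mice that largely overlap, so the shares do not come from independent animals. Of the 24 leading genes 13 kept their direction in dentate and 17 in CA1, and 1 and 4 of them were called there. *Myh7b* had an LFC of 0.61 in dentate and 1.06 in CA1 beside its 0.79 in CA3, and *Ralgapa2* had -0.07 and -0.50 beside its -0.67. The smallest p against dentate belonged to *Gipc1*, a PDZ adaptor gene, with an LFC of -0.54 in CA3 and 0.85 in dentate (edgeR adjusted p = 0.341), and against CA1 to *3110067C02Rik*, which was below the filter in the CA3 libraries alone (adjusted p = 1).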

How the data were processed

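RNA of laser-captured neurons was made into total RNA libraries with a stranded low-input kit and sequenced by the authors. Per the submitters' processing notes FastQC 0.11.9, Trimmomatic 0.39, STAR, Picard 2.26.2 and RSEM were used, and builds GRCm39 and mm10 are named without a role. Gene coordinates here are GRCm39, from the GENCODE annotation. The deposited values are RSEM estimated counts per gene and, per library, TPM by the authors. Estimated counts were rounded to whole numbers. TPM was used for no test.

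Genes above 0.1 CPM in at least 10 libraries were kept. Diet was tested with edgeR 4.0.16 (R 4.3.3; TMM scaling, robust quasi-likelihood fit, 95% intervals from its standard errors) on the 13 libraries, and differences between genotypes or populations by an interaction term over the libraries concerned. P-values were adjusted by the Benjamini-Hochberg method over all genes tested, which applies to each adjusted p given for a gene. The study's own analysis used a voom-based mixed model with RNA concentration and read-quality percentages as covariates. Those covariates were not available here, so no fit adjusts for them. Limma-voom with diet alone was run as an alternative. Other alternatives were DESeq2 1.42.0, other scaling, filters, covariates, thinning, leaving out each library, and the mouse 15-145 library under either label. Adding the mitochondrial share, leaving out mitochondrial genes and leaving out mice 15-140 and 15-199 were chosen after seeing the data. The 95% intervals of the LFC cover variation between mice as well as counting error, whereas the 3-count level of a single library covers counting error only.

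Named genes were the 12 higher and 12 lower with the smallest p at a mean of at least 1 CPM, up to 4 members of each list, a set of fixed genes, and the gene with the smallest p of each interaction. The 32 gene lists and 15 marker lists, the named-gene rule and the comparison itself were chosen with earlier results of these data known. The fit was tested on simulated data. Results for some called genes are not reported here.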

Additional observations from a re-analysis of the deposited data

Results flagged for a closer look

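The rule for a library that lies apart asks whether the gap between the highest or lowest library and its nearest neighbour exceeds Dixon's 95% limit for the group size, which chance alone passes in about 1 of 20 groups. Of 84 groups of values, 11 passed. In ChP, mouse 15-140 stood apart for *Prpf38b* at 94.6 CPM (others 56.1 to 69.9) and for *Myh7b* at 10.8 CPM (others 20.9 to 26.8), mouse 14-90 for *Ralgapa2* at 12 CPM (others 21.9 to 27.8), and mouse 17-03 for *5730480H06Rik* at 13.8 CPM (others 4.49 to 8). In ChN, mouse 17-153 stood apart for *Mto1* at 18.3 CPM (others 8.87 to 11.9), mouse 17-157 for *mt-Rnr2* at 36100 CPM (others 32100 to 33400), mouse 16-490 for *Aldh7a1* at 29.7 CPM (others 8.87 to 15.8) and for *Slc44a1* at 33.7 CPM (others 49.7 to 52.5), another ChN mouse for *Ralgapa2* at 29.2 CPM (others 36.8 to 40.4) and, in the same mouse, for *Pcdha2* at 15.6 CPM (others 7.93 to 9.49), and mouse 17-173 for *Gm44675* at 8.93 CPM (others 6.81 to 7.34).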

How the results depend on the processing

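Of the 28 other settings of the diet comparison 27 gave 0 genes past adjustment. With all 23591 genes that had a count entered in edgeR, 1427 had an unadjusted p under 0.05 and 3 passed adjustment, among them *Zc3h11a* (LFC 0.66, adjusted p = 0.0145) and *Sst* (0.92, adjusted p = 0.0206), each with an adjusted p of 0.988 in the filtered fit. The cause was not tested. Only mice numbered 16 or 17 gave 440 called genes, a fit with fewer samples, and leaving out each library gave 591 to 754, against 681. Of the called genes 55.7% were higher in ChP, against 37.2% with library totals and 42.0% with mice numbered 16 or 17.

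No paired analysis of the diet difference was possible because each mouse received 1 diet. For differences between populations, with mouse as a replicate block, genes at an unadjusted p under 0.05 numbered 751 against dentate (751 without the block) and 419 against CA1 (555 without), with 0 past adjustment. The deviations of the same mouse in CA3 and dentate correlated at a median of 0.109 over 13 pairs, and in CA3 and CA1 at 0.109 over 12 pairs.

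Over 100 named genes and 2784 alternative values 455 no longer passed the unadjusted threshold. Of the 87 called genes 61 lost it with mice numbered 16 or 17, 33 with the mitochondrial share added, 31 with the library of mouse 15-145 and 28 after thinning. In 28 values the sign was opposite, and the cause was not tested. With the library of mouse 15-145 as Ts65Dn the LFC was 0.0115 for *App*, 0.0226 for *Slc44a1*, -0.00167 for *Bdnf*, -0.00847 for *Inhba*, -0.204 for *Sst* and -0.556 for *Npy*. This setting cannot separate diet from genotype for any of these genes, nor from gene dose for the triplicated gene *App*. That library lay nearer the disomic range for triplicated Mmu16 genes and inside it for triplicated Mmu17 genes. With mice numbered 16 or 17 it was 0.0191 for *App*, 0.102 for *Dnmt3a*, 0.130 for *Ache*, -0.0580 for *Ntrk2*, -0.307 for *Kcnh7*, -0.0455 for *Aldoc* and -0.0516 for *Gja1*. After thinning it was 0.0369 for *Pcyt1a* and 0.00661 for *Mat2a*, and with library totals -0.00508 for *Ntrk2*. Leaving out single libraries it ran from -0.179 to 0.103 for *Pcyt1a*, -0.0768 to 0.0468 for *Slc44a1*, -0.0991 to 0.0151 for *Dnmt3a*, -0.0389 to 0.0735 for *Bdnf* and -0.0150 to 0.0469 for *Ntrk2*.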
